A study of Mus musculus with 12 samples.

Results

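GFP-negative and GFP-positive colonies, obtained by reprogramming mouse leukemia driven by NOTCH1, were compared gene by gene on 3 arrays each, and described through the genes whose arrays did not overlap between the groups. A gene was taken when its 3 values of 1 group all lay above its 3 values of the other. Of 22180 genes measured, 1449 met this rule, 955 with all GFP-negative arrays above all GFP-positive arrays (4.31% of genes) and 494 with all GFP-negative arrays below (2.23%). Because the choice rests on the difference between the colony groups, the differences and counts of these genes describe the arrays and carry no test. A gene without any difference between the groups can also meet the rule when its arrays happen to fall in this order. How many genes would do so was not tested. Leukemia and established induced pluripotent stem (iPS) cells, also with 3 arrays each, were not used in the choice and served as end states.

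All 4 groups carried the same mouse genotype, R26rtTA;Col1a1 2lox-4F2A, in which a doxycycline-inducible transactivator is expressed from the Rosa26 locus and the Col1a1 locus holds a cassette that the transactivator switches on to express Myc, Klf4, Sox2 and Pou5f1 together. The leukemia arose in a mouse model driven by NOTCH1 and was collected from the spleen, and its 3 titles give a single leukemia number. The labels describe the GFP-positive colonies as partially reprogrammed and the GFP-negative colonies as reprogrammed, and both kinds were picked from a culture of these leukemia cells. They give no ages, do not say what GFP marks, and do not say whether the arrays of a group came from separate animals, cultures or picked colonies. A p-value therefore measures only the spread between these arrays.

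Reprogramming replaces the expression program of a somatic cell by that of pluripotent stem cells. Early in the process somatic genes are shut down and epithelial adhesion genes are switched on, and the network around Nanog and endogenous Sox2 is established late. NOTCH1 is a cell surface receptor whose cleaved intracellular part enters the nucleus, binds the DNA-binding protein RBPJ and activates target genes; in early T cells this drives T lineage commitment, and constitutive NOTCH1 activity causes T cell leukemia. Retroviral and transposon sequences are silenced in pluripotent cells by histone and DNA methylation.

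The arrays of the end states matched their labels, whereas the colony arrays differed within each group. Cd3e, part of the T cell receptor complex, lay between 11.83 and 11.92 on the log2 scale in leukemia, and Nanog, a core pluripotency factor, between 12.21 and 12.39 in iPS cells. Across genes, leukemia arrays correlated with each other at r = 0.994 and iPS arrays at 0.995. GFP-positive arrays correlated at 0.937 to 0.975 and GFP-negative arrays at 0.887 to 0.97, and pairs of arrays from different colony groups at 0.879 to 0.981. Nanog was at 5.07 in GFP-negative replicate 1, near its leukemia values of 4.32 to 4.99, but at 11.35 and 11.85 in GFP-negative replicates 2 and 3. This array, labelled as reprogrammed, also had Cd3e at 9.83, while the other GFP-negative arrays had 6.13 and 6.04. These values go against its label, and whether the sample was mixed up could not be checked, so every group difference here depends on that label. Without this array 3506 genes were higher and 3361 lower in GFP-negative colonies without overlap, with 1 array fewer to overlap. In GFP-positive colonies Nanog was at 9.56, 11.93 and 7.97, so that the Nanog ranges of the colony groups overlapped over most of their length. GFP-positive replicate 2, labelled as partially reprogrammed, was near GFP-negative replicates 2 and 3, and GFP-positive replicate 3 was lowest. The mean level over the pan-haematopoietic genes described below was 8.14 in GFP-positive replicate 3, and 6.82 and 6.85 in replicates 1 and 2. The numbers of the arrays are used below wherever GFP-negative replicate 1 or GFP-positive replicate 3 carries a difference.

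No gene was called different between the colony groups. With limma's moderated test on the 6 colony arrays over 22180 genes, 0 genes (0%) had a Benjamini-Hochberg adjusted p under 0.05, 393 had an unadjusted p under 0.05, and the smallest adjusted p was 0.998. A fit of all 12 arrays that shares the spread of the 4 groups also called 0 genes, with a smallest adjusted p of 0.141, and a fit that weights arrays by their quality called 0 as well. Without GFP-negative replicate 1 the test called 1 gene, the keratin gene Krt17, with a difference of -3.47 and an adjusted p of 0.0427 in limma. Differences below are GFP-negative minus GFP-positive on the log2 scale with the standard error (SE) of the limma fit and n = 3 arrays per group.

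Most of the 1449 genes differed little. The median difference was 0.27 for the genes higher in GFP-negative colonies and -0.31 for those lower, against a median of 0.025 over all genes. The gap between the groups, the lowest array of the higher group minus the highest array of the lower group, had a median of 0.056 and 0.057, and it reached 1 in 1 gene of each direction. A difference of at least 2-fold was seen for 16 genes higher in GFP-negative colonies and 40 lower, and of at least 4-fold for 0 and 11. At the edge of the rule, Insm2 was just inside among the higher genes with a difference of 0.15, and Smpd3 just outside with 0.27. Among the lower genes H2-M10.3 was just inside with -0.15, and Pik3cg just outside with -0.42. The rule thus ranks separation of the arrays and not size, and Krt6a, with the largest difference of any gene (-5.04), was not taken, because GFP-negative replicate 1 (11.91) lay above GFP-positive replicates 1 and 2 (11.79 and 11.63).

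The preponderance of genes higher in GFP-negative colonies lay among genes with low levels on the array. With genes divided into 4 equal groups by mean level over 12 arrays, in the dimmest group 7.43% were higher in GFP-negative colonies without overlap and 2.60% lower. In the brightest group these shares were 1.95% and 1.66%. Accordingly the median level over all arrays was 5.17 for the higher genes, 5.89 for the lower genes and 6.20 for all genes. After cyclic loess, which removes differences between arrays that depend on level, 712 genes were higher and 712 lower, so that the higher share of the genes without overlap went from 65.9% to 50%. Of the deposited selection, 658 of the 955 higher genes and 448 of the 494 lower genes kept their direction without overlap, and 0 turned. The median difference over all genes went from 0.025 to -0.0057.

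**Figure D1:**
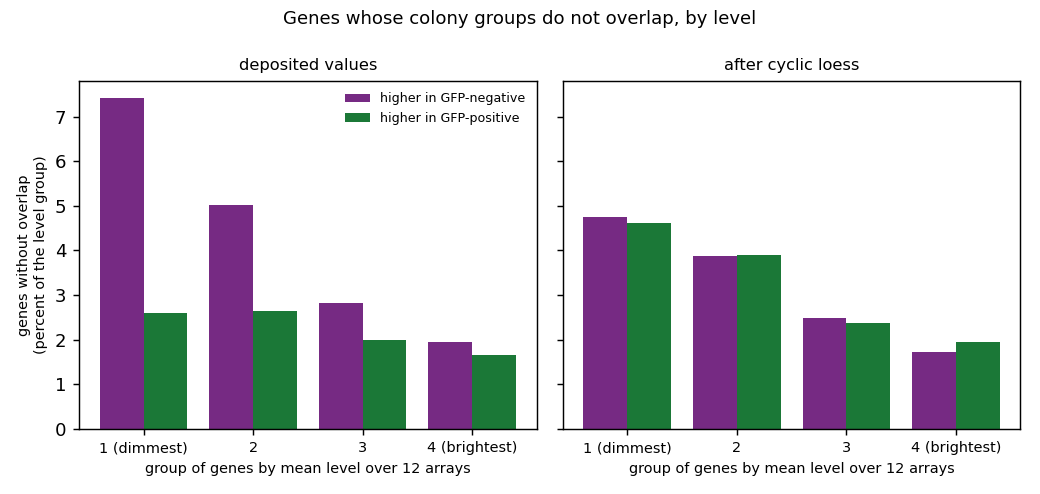
Share of genes in each of 4 level groups (group 1 dimmest, 5545 genes each) whose 3 arrays of 1 colony group all lie above those of the other, in percent, for the deposited values and after cyclic loess. In the deposited values the dimmest group has 7.43% higher in GFP-negative colonies against 2.60% lower, and after cyclic loess 4.76% against 4.62%.

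Among the genes lower in GFP-negative colonies, those with the widest gaps were led by Aqp3, an epithelial channel for water and glycerol, and Ly6d, a surface protein of keratinocytes and lymphoid cells. Aqp3 was at 9.94, 9.59 and 11.42 in GFP-positive colonies and at 8.38, 8.26 and 8.06 in GFP-negative colonies. The difference was -2.08 (SE 0.47) and the gap 1.21, the widest of any gene, and the difference was -1.53 without GFP-positive replicate 3. Leukemia had 5.60 to 6.00 and iPS cells 7.67 to 7.85, so both colony groups lay above both end states. Ly6d was at 8.30, 9.25 and 8.64 against 7.34, 6.04 and 5.53, a difference of -2.43 (SE 0.51). Its leukemia arrays were the highest at 9.96 to 10.20, and GFP-negative replicates 2 and 3 were near the iPS range of 5.50 to 5.97. Klk1b22, a serine protease of the kallikrein family, was at 5.95, 6.52 and 6.00 against 4.51, 5.21 and 4.59, so that GFP-negative colonies lay below both leukemia (10.49 to 10.86) and iPS cells (6.72 to 7.30). The family has many near-identical members, and cross-hybridisation was not tested.

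Among the genes higher in GFP-negative colonies, Pla2g10os, annotated on the strand opposite Pla2g10, had the widest gap. It was at 5.30, 5.53 and 5.2 in GFP-positive colonies and at 6.55, 6.90 and 7.73 in GFP-negative colonies, a difference of 1.72 (SE 0.32) and a gap of 1.02. All GFP-negative arrays lay above iPS cells (5.10 to 5.30) and leukemia (2.98 to 3.78), and the GFP-positive arrays lay close to iPS cells. Tram2, a membrane protein of the endoplasmic reticulum that takes part in collagen synthesis, was at 6.88, 6.95 and 7.02 against 7.82, 7.59 and 7.80. The difference was 0.79 (SE 0.13), and GFP-negative colonies stood between leukemia (7.05 to 7.43) and iPS cells (8.07 to 8.46). For Tram2 all arrays of a colony group lay close together, including GFP-negative replicate 1 and GFP-positive replicate 3.

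The promoters of genes from both directions differ widely in CpG content, and 4 are printed as examples, the widest gaps of each direction for which the RefSeq table held a window. Each runs 5′ to 3′ on the gene's strand from 250 bases before to 50 bases after the annotated start in GRCm38.p6, with every CpG and the letters TATAAA in capitals. Aqp3 (chr4:41098134-41098433, minus strand) and Klk1b22 (chr7:44112423-44112722, plus strand) were lower in GFP-negative colonies, and Pla2g10os (chr16:13729586-13729885, plus strand) and Tram2 (chr1:21079176-21079475, minus strand) higher.
Aqp3: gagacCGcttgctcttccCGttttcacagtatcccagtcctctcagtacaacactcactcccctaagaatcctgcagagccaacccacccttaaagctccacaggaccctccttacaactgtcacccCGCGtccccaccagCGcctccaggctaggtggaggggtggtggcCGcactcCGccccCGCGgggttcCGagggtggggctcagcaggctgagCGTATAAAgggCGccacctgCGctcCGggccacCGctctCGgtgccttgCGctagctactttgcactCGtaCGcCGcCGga
Klk1b22: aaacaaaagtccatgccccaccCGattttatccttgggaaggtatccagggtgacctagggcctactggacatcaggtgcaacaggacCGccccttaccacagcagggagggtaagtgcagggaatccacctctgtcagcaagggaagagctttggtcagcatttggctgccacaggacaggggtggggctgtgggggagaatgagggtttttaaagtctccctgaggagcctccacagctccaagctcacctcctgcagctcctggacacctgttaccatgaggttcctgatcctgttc
Pla2g10os: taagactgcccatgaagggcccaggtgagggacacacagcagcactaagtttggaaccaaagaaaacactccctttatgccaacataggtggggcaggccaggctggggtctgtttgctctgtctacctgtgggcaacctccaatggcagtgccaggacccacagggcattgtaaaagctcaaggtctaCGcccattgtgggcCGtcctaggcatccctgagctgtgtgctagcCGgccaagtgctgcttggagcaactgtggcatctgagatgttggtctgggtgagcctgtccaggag
Tram2: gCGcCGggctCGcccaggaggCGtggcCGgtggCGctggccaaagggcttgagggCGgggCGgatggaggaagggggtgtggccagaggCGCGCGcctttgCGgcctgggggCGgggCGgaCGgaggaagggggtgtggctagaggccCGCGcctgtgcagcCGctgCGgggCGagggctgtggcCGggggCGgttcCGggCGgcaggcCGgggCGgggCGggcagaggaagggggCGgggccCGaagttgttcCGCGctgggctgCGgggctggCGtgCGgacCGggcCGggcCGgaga
The Aqp3 window holds TATAAA at position -28 and 21 CpGs, and the Tram2 window holds 37 CpGs and no TATAAA. Klk1b22 and Pla2g10os hold 2 and 3 CpGs. The ratio of observed to expected CpG was 0.71 for Aqp3, 0.90 for Tram2, 0.085 for Klk1b22 and 0.13 for Pla2g10os, so that each direction contains a CpG-rich and a CpG-poor example.

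Promoter composition was compared over all genes with a window, as a description. A window was matched for 703 of the 955 higher genes, 383 of the 494 lower genes and 16918 of all genes. A CpG ratio of at least 0.6 was found in 31.3% of the higher genes, 43.1% of the lower genes and 47.6% of all genes. Within the dimmest level group, where CpG-poor promoters prevail, the shares were 9.03%, 13.5% and 11.6%. In the other level groups they were 48.9%, 54.1% and 58.8%. TATAAA, searched on both strands, was present in 19% of the windows of higher genes, 14.9% of lower genes, 14.3% of all genes and 13.6% of all 32851 windows of the table. TGGGAA, the core letters bound by RBPJ, was present in 29.2%, 26.6% and 27.3% in the same order, and in 25.6% of all windows. The shares with TATAAA and TGGGAA were not divided by level, and the higher genes had a lower median level (5.17) than all genes (6.20). All these shares belong to the deposited selection and are not given after cyclic loess. The counts of TATAAA and TGGGAA are matches of letters and describe no binding.

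The other genes with the widest gaps on the lower side belong to several families. Peli2, a ubiquitin ligase of innate immune signalling, had a difference of -1.56 (SE 0.53), or -0.93 without GFP-positive replicate 3, which was at 9.03 with the others at 7.24 and 7.01. Cyp4f39, a cytochrome P450 of fatty acid metabolism, had a difference of -2.17 (SE 0.80), or -1.25 without GFP-positive replicate 3 (10.37, with the others at 7.59 and 7.61). Chl1, a cell adhesion molecule of the immunoglobulin family, was at 6.09, 5.52 and 6.97 in GFP-positive colonies and at 4.94, 4.49 and 4.48 in GFP-negative colonies, the latter near both end states. Herpud1, a membrane protein of the endoplasmic reticulum induced when unfolded proteins accumulate, was at 9.45, 9.42 and 9.25 against 8.52, 8.73 and 8.78. Its GFP-positive values were near leukemia (9.55 to 9.63), and iPS cells were lowest at 8.11 to 8.23. Lcn2, a secreted protein that binds iron carriers, had a difference of -1.19 (SE 0.34). Gsdmc3, a gasdermin, and Dpt, a matrix protein, had differences of -0.64 (SE 0.12) and -1.0 (SE 0.27). In Dpt the order was opposite to that of the end states, since iPS cells were at 7.0 to 7.13 and leukemia at 4.41 to 4.44.

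On the higher side the remaining wide gaps were smaller and reached from transcription to lipid and collagen enzymes. Plod2, which hydroxylates lysines of collagen, was at 7.46, 7.98 and 5.91 in GFP-positive colonies and at 8.52, 8.39 and 8.60 in GFP-negative colonies. Its difference of 1.39 (SE 0.52) was 0.78 without GFP-positive replicate 3, and the GFP-negative values lay just under iPS cells at 8.65 to 8.87. Pi4k2b, a phosphatidylinositol kinase, had a difference of 1.01 (SE 0.24), and GFP-negative colonies (6.93 to 7.60) covered the iPS range of 7.02 to 7.36. Ppic, a cyclophilin, had a difference of 0.80 (SE 0.23), and Med30, a subunit of the Mediator complex that links transcription factors to RNA polymerase, 0.78 (SE 0.20). Dennd11, a DENN domain protein, had a difference of 0.57 (SE 0.14), with GFP-negative colonies near the iPS level. AY512931 and Ssxb6 had differences of 0.75 (SE 0.14) and 1.0 (SE 0.23), at low levels. Capn6, a calpain, had a difference of 1.04 (SE 0.49) with GFP-negative replicate 1 at 6.94 and the other arrays at 5.30 and 5.09, and of 0.46 without that replicate.

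**Figure D2:**
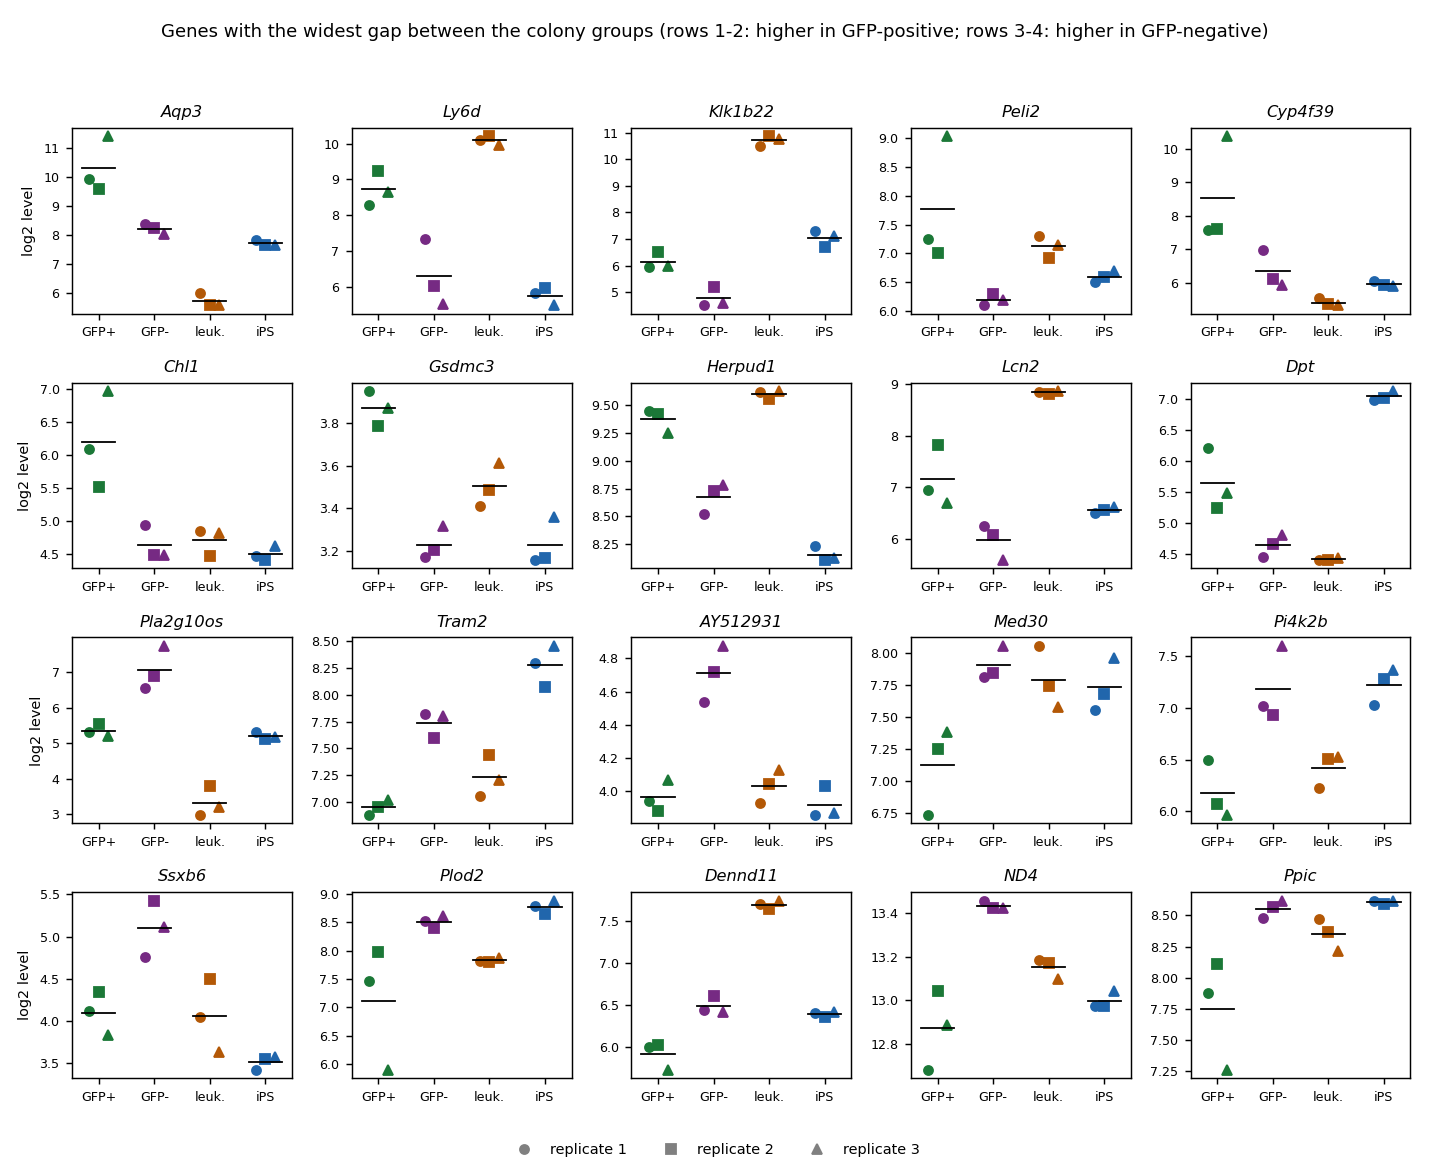
Log2 level of the 20 genes with the widest gap between the colony groups on each of 12 arrays (symbol shape, replicate; line, group mean; n = 3 per group). The upper rows hold genes lower in GFP-negative colonies, led by Aqp3 with a gap of 1.21, and the lower rows genes higher there, led by Pla2g10os with a gap of 1.02.

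Genes encoded by the mitochondrial genome were higher in GFP-negative colonies almost as a block. These genes code for subunits of complex I (ND1 to ND6), complex III (CYTB) and complex IV (COX1, COX3) of the respiratory chain and are transcribed inside the mitochondrion as long polycistronic RNAs. This list was drawn up after the values had been seen, when ND4, ND4L and ND6 had already been named by the rule. Because its genes share long RNAs, they do not count as separate observations. Of 10 measured, 9 had all GFP-negative arrays above all GFP-positive arrays (90%, against 4.31% of all genes) and 0 the reverse, with a median difference of 0.52 over the list. The median stayed between 0.43 and 0.62 when any 1 array was left out. ND4 was at 12.68, 13.04 and 12.89 in GFP-positive colonies and at 13.46, 13.42 and 13.42 in GFP-negative colonies. ND4L was at 9.03, 9.70 and 9.17 against 10.03, 10.74 and 10.91, with the largest difference of the list, 1.26 (SE 0.30). ND6, the gene on the opposite strand of the mitochondrial genome, was at 8.40, 8.72 and 7.52 against 8.95, 9.73 and 9.02, a difference of 1.02 (SE 0.37), or 0.67 without GFP-positive replicate 3. ND3 was the exception, because GFP-negative replicate 1 at 10.32 lay under GFP-positive replicate 2 at 10.58.

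The mitochondrial values of GFP-negative colonies lay outside both end states. For 9 of the 10 genes all GFP-negative arrays were above all iPS arrays and above all leukemia arrays. GFP-positive colonies were below all leukemia arrays for 3 genes and below all iPS arrays for 1. Between iPS cells and leukemia 0 of the 10 were called higher and 1, COX3, lower (difference -0.24, limma adjusted p = 0.0212). After cyclic loess 7 of the 10 still had no overlap, and COX1 and COX3, with the smallest differences (0.17 and 0.31), overlapped. Another 2 probe sets that the annotation gives to several symbols, mitochondrial genes among them, also had no overlap, with gaps of 0.18 and 0.21. Copies of mitochondrial sequence in the nuclear genome are nearly identical, and the specificity of the probe sets was not tested.

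Nuclear genes of the same organelle were separated at shares near those of all genes (4.31% higher and 2.23% lower). Of 50 nuclear-encoded subunits of the respiratory chain, 1 (Cox5a) was higher in GFP-negative colonies without overlap and 1 (Uqcrc2) lower, with a median difference of 0.07. Of 19 genes for mitochondrial transcription and replication, 1 (Mterf3) was higher and 0 lower, with a median of 0.16. Further lists, of hypoxia and of unfolded proteins, were drawn up in the same way, prompted by Plod2 and Herpud1. Of 21 genes of the hypoxia response, 2 were higher (Plod2 and Bnip3, a mitochondrial autophagy receptor, at 6.60, 6.18 and 6.30 against 7.17, 6.90 and 7.04), with a list median of -0.08. Of 24 genes of the unfolded protein response, only Herpud1 was without overlap, and the median was -0.03.

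**Figure D3:**
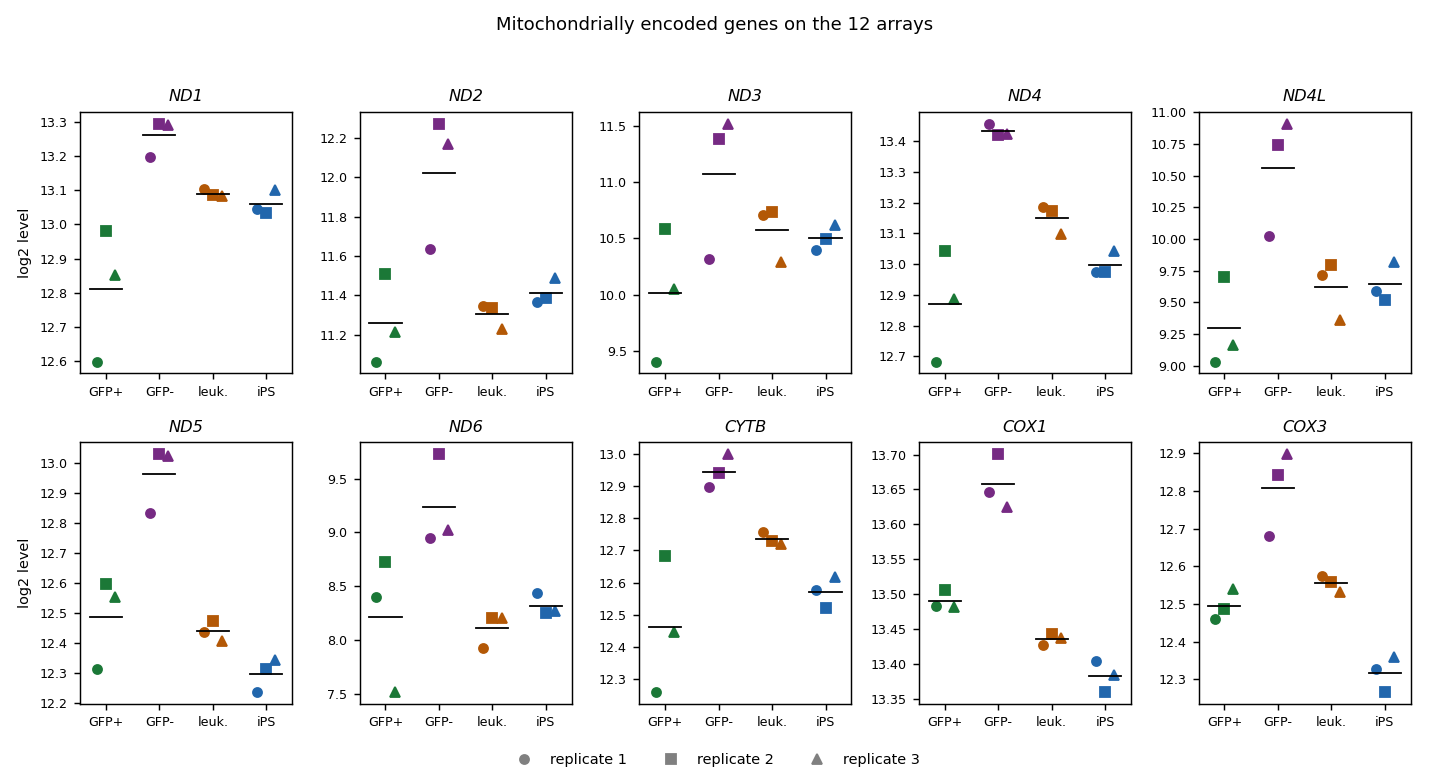
Log2 level of the 10 measured mitochondrially encoded genes on the 12 arrays (symbol shape, replicate; line, group mean; n = 3 per group). For 9 genes all GFP-negative arrays lie above all other arrays, and ND3 overlaps through GFP-negative replicate 1 at 10.32.

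Notch1 and its target Nrarp were lower in GFP-negative colonies. Nrarp, which is induced by NOTCH1 and dampens its signal, was at 8.01, 7.76 and 7.77 in GFP-positive colonies and at 7.35, 6.42 and 5.98 in GFP-negative colonies, a difference of -1.26 (SE 0.35) that was -0.96 to -1.65 when 1 array was left out. GFP-positive colonies lay above leukemia (7.07 to 7.29), and GFP-negative replicates 2 and 3 were near iPS cells (6.01 to 6.23). Notch1 itself was at 8.78, 8.98 and 9.07 against 8.67, 8.64 and 8.68, a difference of -0.29 (SE 0.13). The GFP-negative values, replicate 1 included, lay near the iPS level of 8.59 to 8.66, and both colony groups were far below leukemia at 11.31 to 11.33. Whether the Notch1 probe set also reads RNA of the NOTCH1 that drives the leukemia was not tested. Of 22 genes of the Notch pathway, these 2 were lower without overlap and 0 higher, beside 2.23% and 4.31% of all genes, and the list median was -0.14. The other targets overlapped: Hes1 was at 9.02, 8.17 and 7.70 against 8.52, 6.66 and 7.17, and Dtx1 at 7.14, 7.51 and 7.26 against 6.74, 7.18 and 8.11. Rbpj, the DNA-binding partner, overlapped too, at 8.28, 8.78 and 8.04 against 8.71, 9.21 and 9.39. Between iPS cells and leukemia 6 genes of the list rose and 13 fell.

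T lineage genes were far below leukemia in both colony groups, and Bcl11b was the member that was lower in GFP-negative colonies without overlap. Bcl11b, the transcription factor of T lineage commitment, was at 7.41, 7.25 and 7.22 in GFP-positive colonies and at 6.85, 5.55 and 6.19 in GFP-negative colonies, a difference of -1.09 (SE 0.33). Leukemia had 10.90 to 11.01, and iPS cells 6.19 to 6.47. Themis, needed for thymocyte selection, was without overlap the other way, but by 0.18 (SE 0.12). Of 22 T lineage genes, 1 was higher and 1 lower without overlap, beside 4.31% and 2.23% of all genes, with a median of -0.10. All 22 fell from leukemia to iPS cells. The mean level over the list ranged from 5.75 to 6.30 over GFP-positive colonies and from 5.64 to 6.05 over GFP-negative colonies, against 10.02 to 10.05 in leukemia.

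Ptprc and Spn were the pan-haematopoietic genes lower in GFP-negative colonies without overlap, and the median of their list depended on GFP-positive replicate 3. Ptprc, the phosphatase CD45 found on all nucleated blood cells, was at 8.40, 8.83 and 10.75 in GFP-positive colonies and at 8.37, 6.43 and 5.26 in GFP-negative colonies. This is the largest difference among the genes without overlap, -2.64 (SE 0.95), yet the gap was only 0.03, between GFP-positive and GFP-negative replicates 1. Of 24 pan-haematopoietic genes, 2 (Ptprc and Spn, the sialoglycoprotein CD43, -0.35) were lower without overlap, beside 2.23% of all genes. A difference below 0 was seen in 23 of the 24, beside 9966 of 22180 over all genes. The list median of -0.43 was -0.04 without GFP-positive replicate 3. The mean level over this list was 6.82, 6.85 and 8.14 in GFP-positive colonies and 6.98, 6.73 and 6.19 in GFP-negative colonies. In the macrophage and granulocyte list, 1 of 24 genes was lower without overlap (2.23% of all genes were). This was the secreted iron-binding protein Ltf, at 7.73, 6.40 and 9.63 against 6.39, 5.48 and 5.31 (difference -2.19, or -1.33 without GFP-positive replicate 3). That list's median of -0.42 was 0.28 without GFP-positive replicate 3. In bulk samples, fewer cells of a type and less RNA per cell cannot be told apart.

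The median of the interferon response list depended on GFP-positive replicate 3 and on GFP-negative replicate 1. Iigp1, an interferon-inducible GTPase, was at 6.19, 6.98 and 9.81 in GFP-positive colonies and at 6.18, 5.03 and 4.74 in GFP-negative colonies, a difference of -2.34 (SE 0.97) with a gap of 0.02, and of -1.27 without GFP-positive replicate 3. Cxcl10, an interferon-induced chemokine, had a difference of -0.33 (SE 0.17), and of -0.18 without that array. These 2 of 26 interferon genes were lower without overlap (2.23% of all genes were). The list median of -0.58 was -0.09 without GFP-positive replicate 3 and -1.13 without GFP-negative replicate 1. The mean level over the interferon list was 7.28, 7.58 and 8.94 in GFP-positive colonies and 8.25, 6.69 and 6.93 in GFP-negative colonies. Of 13 genes of MHC class I presentation 0 were without overlap, beside 4.31% higher and 2.23% lower over all genes. The list median was nevertheless -1.01, and 11 were below 0 (9966 of 22180 over all genes). The median was -1.55 without GFP-negative replicate 1, -0.58 without GFP-positive replicate 3 and -0.60 without GFP-negative replicate 3. The mean level over that list was 8.48, 8.08 and 9.53 in GFP-positive colonies and 8.90, 7.45 and 7.05 in GFP-negative colonies. GFP-negative replicate 1 thus lay inside the GFP-positive range. The part of leukocytes or of interferon in these differences was not tested.

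Genes of stratified epithelium had the lowest median of the lists, and here GFP-negative replicate 1 lay close to the GFP-positive arrays. Krt17, a keratin of basal and stressed epidermis, was at 11.80, 11.93 and 12.11 in GFP-positive colonies and at 11.60, 8.54 and 8.41 in GFP-negative colonies. The difference was -2.43 (SE 0.86), and -3.47 without GFP-negative replicate 1, where it was called. Krt6b was at 7.90, 8.52 and 8.65 against 7.81, 5.53 and 5.32, and Col17a1, a collagen of the hemidesmosome, was lower by -0.35 (SE 0.14). Of 26 genes of stratified epithelium, these 3 were lower without overlap (2.23% of all genes were), 25 were below 0 (9966 of 22180 over all genes) and the list median was -1.10, from -1.77 without GFP-negative replicate 1 to -0.49 without GFP-negative replicate 3. The mean level over the list was 8.89, 8.51 and 9.49 in GFP-positive colonies, 9.13, 7.16 and 6.31 in GFP-negative colonies, 5.78 to 5.81 in leukemia and 6.62 to 6.67 in iPS cells. In the list of the cornified envelope 2 of 27 genes, Ly6d and Tgm3, were lower without overlap (2.23% of all genes were). Tgm3, a transglutaminase that crosslinks envelope proteins, was at 7.68, 7.08 and 11.45 against 7.07, 6.56 and 6.51. Without GFP-positive replicate 3 the difference of Tgm3 went from -2.02 to -0.67. The median of the cornified list was -0.83, or -0.45 without GFP-positive replicate 3 and -0.26 if instead GFP-negative replicate 3 was left out.

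Of 24 simple epithelial genes, 1 was lower without overlap (2.23% of all genes were) and 20 were below 0 (9966 of 22180 over all genes). The list median of -0.38 ran from -0.75 without GFP-negative replicate 1 to 0.02 without GFP-negative replicate 3. The gene without overlap was Tjp3, a protein of tight junctions, at 8.36, 7.97 and 9.05 against 7.86, 7.57 and 7.58, with a difference of -0.79, or -0.49 without GFP-positive replicate 3. Epcam was at 9.35, 9.30 and 9.65 against 9.91, 9.37 and 9.06, near iPS cells at 9.09 to 9.13 and far above leukemia at 4.88 to 5.08. Of 20 primitive endoderm genes, 2 were lower without overlap and 0 higher, beside 2.23% and 4.31% of all genes. Differences were below 0 in 10 and above 0 in 10, with a median of -0.02. Among the 2 lower genes, Lama1, a laminin chain of basement membranes, was at 8.0, 7.77 and 7.18 against 6.35, 6.92 and 6.38. Its iPS values of 9.29 to 9.40 lay above both groups, so GFP-negative colonies were farther from iPS cells than GFP-positive colonies were. Dab2, an endocytic adaptor of endoderm, had a difference of -1.24 (SE 0.51) with a gap of 0.05, and of -0.79 without GFP-negative replicate 3.

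**Figure D4:**
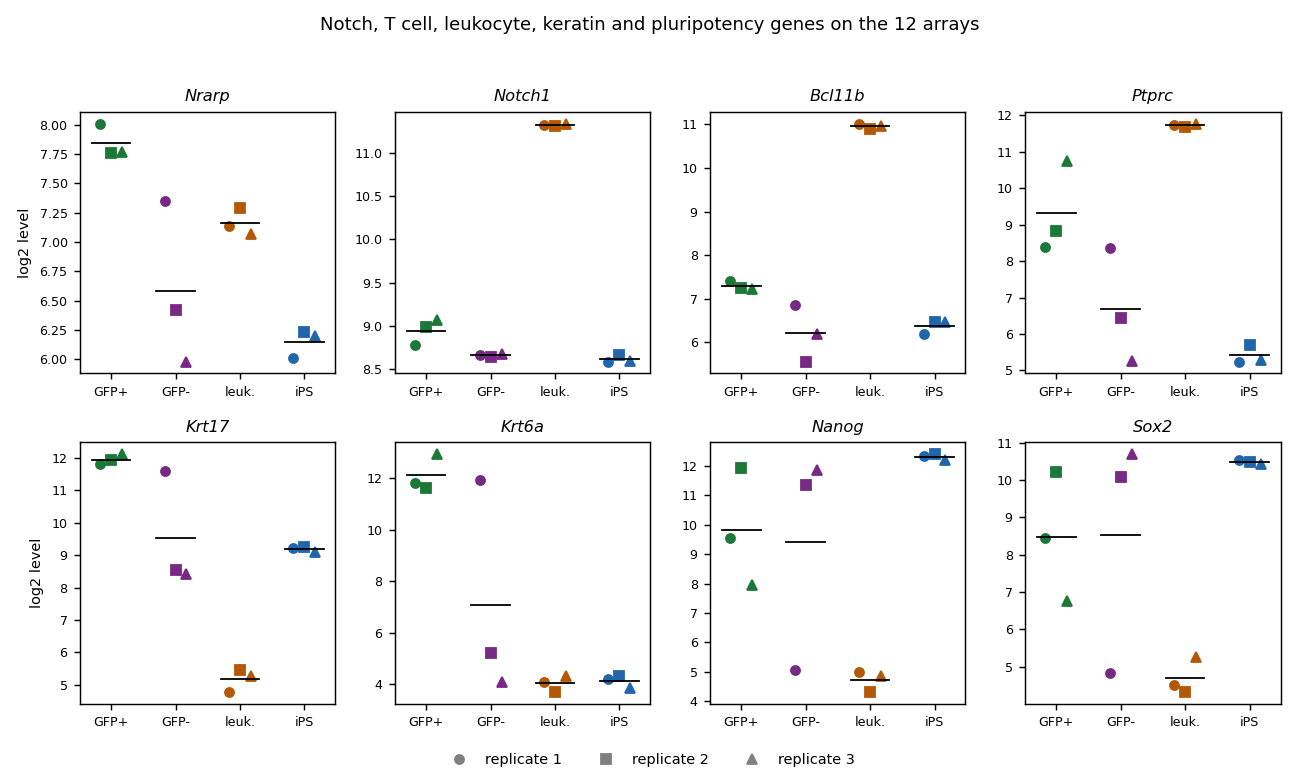
Log2 level of 8 genes of the Notch pathway, T cells, leukocytes, keratinocytes and pluripotency on the 12 arrays (symbol shape, replicate; line, group mean; n = 3 per group). GFP-negative replicate 1 lies apart from its group in Krt17 (11.60), Krt6a (11.91), Nanog (5.07) and Sox2 (4.83), but not in Notch1 (8.67). It is also the highest GFP-negative array in Ptprc (8.37), Nrarp (7.35) and Bcl11b (6.85).

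Pluripotency genes were not among the genes without overlap. Of 25 genes of naive pluripotency 0 were higher or lower without overlap, beside 4.31% and 2.23% of all genes. The median of 0.15 ran from -0.37 without GFP-negative replicate 3 to 1.12 without GFP-negative replicate 1. All 25 rose from leukemia to iPS cells. Sox2 was at 8.46, 10.21 and 6.76 in GFP-positive colonies and at 4.83, 10.07 and 10.69 in GFP-negative colonies, a difference of 0.05 (SE 1.72). The differences of the other factors of the cassette were 0.09 (SE 0.20) for Pou5f1, -0.95 (SE 0.40) for Klf4 and -0.32 (SE 0.38) for Myc, all with overlapping arrays. Whether these probe sets also read RNA of the cassette was not tested. The retroviral silencing list is made up of DNA and histone methylation genes and their partners. Of its 22 genes, 2 were higher in GFP-negative colonies without overlap (4.31% of all genes were). These were Ehmt1, a histone H3 lysine methyltransferase, by 0.13 (SE 0.11), and Cbx3, a heterochromatin protein, by 0.26 (SE 0.14). The median of this list was 0.14, and ran from -0.05 without GFP-positive replicate 3 to 0.48 without GFP-negative replicate 1.

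In the remaining lists the genes without overlap were few and their differences small. Ccng1 and Sesn1, both targets of p53, went in opposite directions, Ccng1 at 11.65, 11.66 and 11.16 against 11.76, 11.91 and 12.05, and Sesn1 by -0.24 (SE 0.14). Meg3, an imprinted noncoding RNA, was higher by 0.33 (SE 0.22), or 0.10 without GFP-negative replicate 3, and Car1, a carbonic anhydrase of red cells, by 0.23 (SE 0.13). Over all 26 lists of the plan, with 452 distinct genes measured, 6 genes were higher in GFP-negative colonies and 17 lower without overlap, beside 4.31% and 2.23% of all genes, and 13 lists had none. Among these were the lists of germline genes (median 0.35), genes of the state like 2-cell embryos (0.26), cell division (0.06), housekeeping (0.09, and -0.0022 after cyclic loess), glycolysis (0.11), fibroblast and matrix (-0.25) and MHC class II (-0.49). Leaving out GFP-positive replicate 3 turned the median of MHC class II to 0.19, of glycolysis to -0.05 and of housekeeping to -0.03, and brought germline to 0.05. Leaving out GFP-negative replicate 3 turned cell division to -0.14 and brought the 2-cell list to 0.09 and fibroblast and matrix to -0.15. MHC class II was at -1.20 without GFP-positive replicate 1, germline at 0.71 without GFP-positive replicate 2 and cell division at 0.46 without GFP-negative replicate 1.

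**Figure D5:**
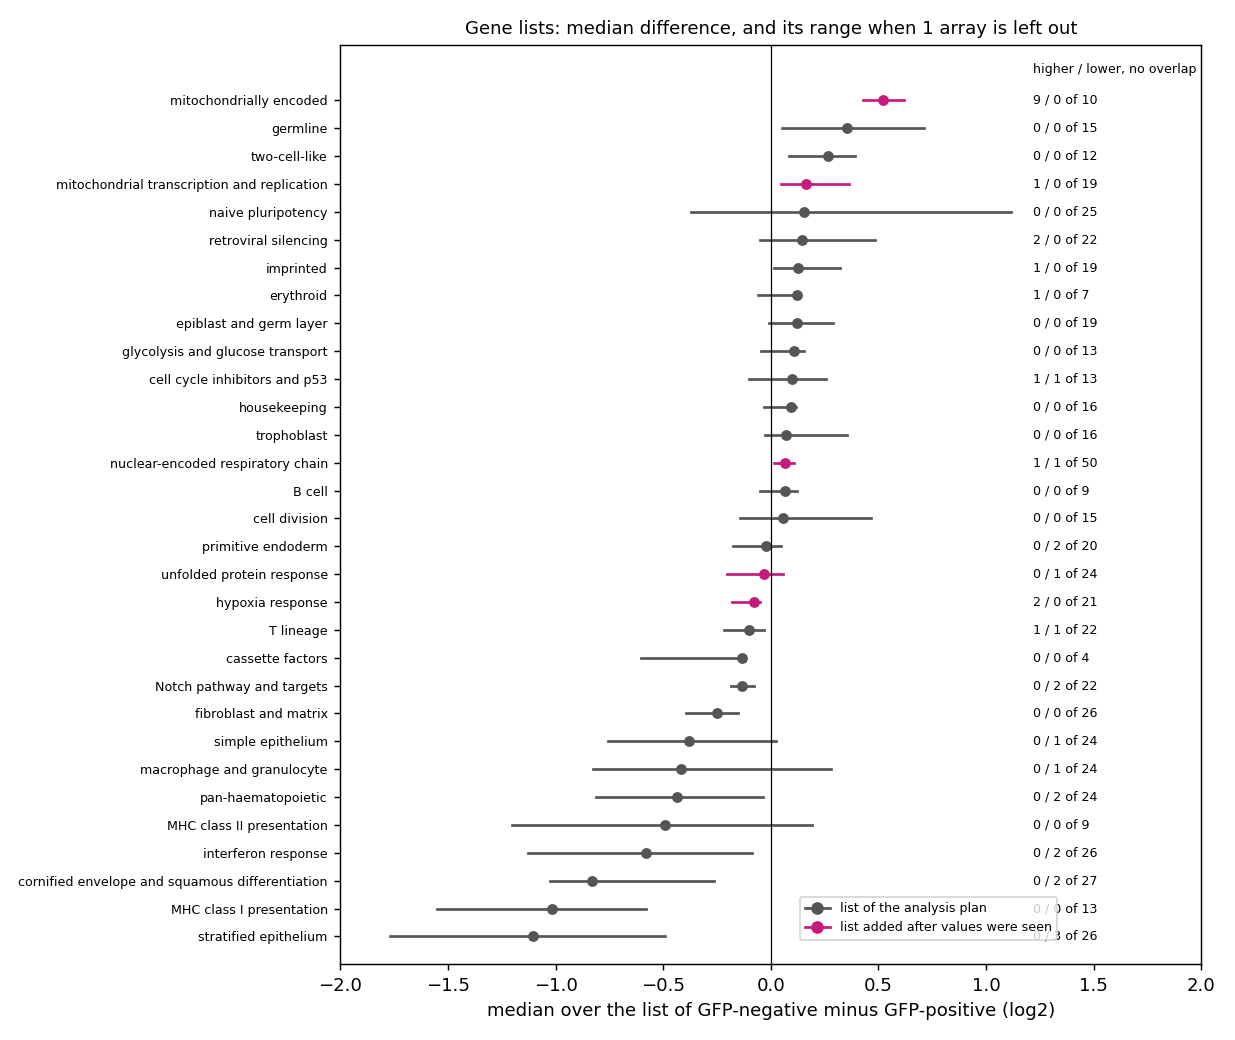
Median over each list of the difference GFP-negative minus GFP-positive (log2), with bars from the lowest to the highest median when 1 of the 6 colony arrays is left out, and the counts of genes without overlap at the right. The mitochondrially encoded genes have the highest median (0.52) with 9 of 10 genes higher, and stratified epithelium the lowest (-1.10) with 3 of 26 lower.

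Set against the end states, 157 of the genes lower in GFP-negative colonies fell from leukemia to iPS cells and 82 rose, while the genes higher in GFP-negative colonies divided nearly equally in the deposited values. Over all genes the limma test called 24.5% higher and 22.9% lower in iPS cells than in leukemia. Of the 494 genes lower in GFP-negative colonies, 82 (16.6%) were called higher in iPS cells and 157 (31.8%) lower. Of the 955 genes higher in GFP-negative colonies, 136 (14.2%) were called higher in iPS cells and 143 (15%) lower. After cyclic loess the split of the higher genes was 178 and 106 of 712, and that of the lower genes 91 and 126 of 712. The shares of 24.5% and 22.9% over all genes belong to the deposited values and are not given after cyclic loess. Of the 40 lower genes with at least 2-fold difference, 14 were higher in iPS cells and 16 lower, beside 184 and 171 of the 484 genes with such a difference among all genes. The former include Krt17, Aqp3, Lama1 and Dpt, and the latter Ptprc, Ly6d, Ltf, Bcl11b, Nrarp and Dpp4, a peptidase of activated T cells. Of the 16 higher genes with at least 2-fold difference, 7 were higher in iPS cells and 3 lower, beside the same 184 and 171 of 484.

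The genes that were taken did not all repeat on other probe sets of the same gene. Of the 955 higher genes, 32 had 38 further probe sets, of which 26 had the same sign of difference and 5 the same separation without overlap, while 1 was separated the other way. Of the 494 lower genes, 22 had 32 further probe sets, with 15 of the same sign, 2 separated the same way and 1 the other way. Over all genes, 827 of 1341 such further probe sets had a difference above 0, 64 were higher in GFP-negative colonies without overlap and 17 lower.

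The array at the inner edge of the gap was counted for each gene. GFP-negative replicate 1 was the GFP-negative array nearest to the GFP-positive group in 224 of the 494 lower genes, replicate 2 in 138 and replicate 3 in 132. On the other side GFP-positive replicate 2 was nearest in 235, replicate 1 in 145 and replicate 3 in 114. For the 955 higher genes the nearest GFP-positive arrays were spread over 304, 323 and 328 genes, and the nearest GFP-negative arrays over 366, 335 and 254, in the order of the replicates.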

How the data were processed

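RNA of 12 samples in 4 groups was measured on mouse Affymetrix arrays. Values deposited by the authors are on the log2 scale and come from RMA, per the submitters' processing notes, which corrects background, equalizes the arrays by quantiles and combines probes into probe sets. Quantile scaling would remove a shift of most genes in 1 direction. The 41345 probe sets had 0 missing values, and 0 pairs of arrays were identical. Groups were taken from the sample labels. Probe sets with exactly 1 symbol were kept (23521), and of several per gene that with the highest mean over 12 arrays, which left 22180 genes, of which 21994 were found in the RefSeq table. No detection values were used, and the precision is limited by the number of arrays.

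The colony groups were compared with limma 3.58.1 in R 4.3.3 (lmFit, eBayes, Benjamini-Hochberg over all genes, threshold 0.05) on the 6 colony arrays alone, because the spread between arrays was larger in the colony groups (median SD 0.22 and 0.24) than in both end states (0.10). iPS cells and leukemia were compared on their own 6 arrays. The test was checked on simulated data, and a count of 0 called genes does not show that the colony groups are alike. Lists have no test and are given by counts and medians beside all genes. Alternatives were a fit of 4 groups, array weights, a replicate block, cyclic loess, a filter on dim genes, all probe sets, a robust trend and leaving out each array. Genes named by rule were, without clone and predicted names, in each direction the 10 with the widest gap and the 5 with the largest difference, those at the edge of the rule, up to 2 per list and a fixed set of cassette, lineage and keratin genes. The genes, lists and rules were chosen with earlier results of these data known. Cox5a, Uqcrc2, Mterf3, Bnip3, Krt6b, Hes1, Dtx1, Rbpj and Dpp4, and all mitochondrially encoded genes except ND4, ND4L and ND6, were named after their values had been seen.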

Additional observations from a re-analysis of the deposited data

How the results depend on the processing

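The count of genes called between the colony groups was 0 under the fit of 4 groups (1413 genes with an unadjusted p under 0.05), array weights (4134), cyclic loess (429), the filter on dim genes (112), all probe sets (421) and the robust trend (469), and ran from 0 to 1 when 1 array was left out. With a replicate block it was 0, with 394 genes at an unadjusted p under 0.05. Same-numbered arrays deviated from their group means with r = 0.168, 0.322 and -0.377. With 3 arrays per group these values cannot decide whether the numbers pair the arrays. Genes higher in GFP-negative colonies without overlap numbered 265 among the brighter 11090 genes, 1 with a gap of at least 1, and 1695 to 3506 when 1 array was left out, which leaves fewer arrays to overlap; without both GFP-negative replicate 1 and GFP-positive replicate 3, a setting chosen after seeing the data, they numbered 4897. Genes lower numbered 203, 1, 907 to 3361 and 4168 in the same order, the highest without GFP-negative replicate 1 in both directions. Of the higher genes, 32 rose and 20 fell at least 2-fold from leukemia to iPS cells, and of the lower genes 24 and 46. The fit of 4 groups called 97 of the higher genes higher in iPS cells and 91 lower, and of the lower genes 54 and 110. Shares over all genes are not given for these settings, so the counts are not set against a background. Of 57 named genes, 51 kept direction and call and 1 (Krt17) was called without GFP-negative replicate 1. In 5 the direction turned when 1 array was left out: Pou5f1 ran from -0.057 to 0.25, Sox2 from -1.03 to 1.91, Myc from -0.53 to 0.0015, Nanog from -1.61 to 1.78 and Epcam from -0.22 to 0.20, with Epcam at -0.018 after cyclic loess. Of 47 named genes without overlap, 41 kept it after cyclic loess, and Cbx3, Insm2, Meg3, Sesn1, Spn and Tgm3 did not.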

Other observations

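The genes without overlap included noncoding RNAs, whose shares are given here beside protein-coding genes. In GFP-negative colonies 739 of 18961 protein-coding genes (3.90%) were higher without overlap, against 135 of 1926 long noncoding RNAs (7.01%), 28 of 478 microRNA genes (5.86%) and 31 of 469 pseudogenes (6.61%). The shares lower were 2.26%, 2.39%, 1.46% and 2.13%. The median level over all arrays was 6.51 for protein-coding genes and 4.98 for long noncoding RNAs. Within the dimmest of the 4 level groups the shares higher were 7% for protein-coding genes, 8.98% for long noncoding RNAs and 5.42% for microRNA genes. All these shares belong to the deposited values, in which dim genes were more often higher than lower, and are not given after cyclic loess.

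Probe sets outside the gene comparison were counted in the same way, in the deposited values. Of 16010 probe sets without a gene annotation here, 832 (5.2%) were higher in GFP-negative colonies without overlap and 532 (3.32%) lower. Of 1814 probe sets with several symbols, 93 (5.13%) were higher and 20 (1.10%) lower.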
